A study of Arabidopsis thaliana with 6 samples.

Results

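The 10 genes described here code for small heat shock proteins of Arabidopsis thaliana. They were taken by locus from the annotation of the array's probes, and all 10 were measured, each by 1 probe, among 16505 genes named by locus. The genes were selected on their difference between induced and uninduced arrays, which was already known, so that difference is given below as a description with no test. Small heat shock proteins share an alpha-crystallin domain, work without ATP, and hold unfolding proteins in a soluble state until the ATP-driven chaperones refold them. Plants have an unusually large family of them, with forms in the cytosol, mitochondria, plastids, peroxisomes and endoplasmic reticulum. Most are barely transcribed in unstressed vegetative cells and are switched on by heat shock transcription factors, and some are also made in seeds and pollen.

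RNA came from an Arabidopsis suspension culture carrying VND1-GFP under estrogen control. VND1 is a NAC transcription factor that starts the differentiation of xylem vessel elements. Induced cells (3 arrays) had received 5 µM estrogen 24 h before, and uninduced cells (3 arrays) carried the same construct and were kept 24 h without it, all grown in the dark at 23 °C with shaking at 124 rpm. The design has no culture that lacks the construct and received estrogen, and for this reason VND1, the hormone itself and the handling of cultures cannot be told apart as sources of a difference. Whether the replicates of a group were grown as separate cultures is not stated, so the p-values reflect the spread among these samples alone, and that spread may be technical. Because the RNA is from bulk cultures, fewer cells of a type and less RNA per cell cannot be told apart.

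By the numbers in their titles the arrays fall into 2 consecutive series, called the run of 2 (replicate 1 of each group) and the run of 4 (replicates 2 and 3 of each group). What the numbers stand for is not stated. Array medians were 6.15 (induced) and 6.08 (uninduced) in the run of 2, against 5.41 to 5.55 in the run of 4, on the log2 scale of the deposited values. Of 8 genes listed as a check on vessel induction, 4 were measured and all rose, by 2.78 to 5.64 on the log2 scale, and within the runs the rises were 2.68 to 6.03 (run of 2) and 2.83 to 5.45 (run of 4). VND1 itself was among the listed genes but was not measured by name. Markers of photosynthetic cells (1 of 3 measured), phloem (1 of 3) and procambium (1 of 4) did not pass the test, with differences of 0.10 for RCA, 0.20 for OPS and 0.13 for PHV (-0.14, 0.18 and 0.04 without induced replicate 1). Their levels were 4.54 to 5.24, 5.20 to 5.44 and 9.02 to 9.29 on induced arrays, against 4.25 to 5.29, 4.91 to 5.31 and 8.91 to 9.07 on uninduced arrays. Induced replicate 1 stood apart from the other arrays in the small heat shock protein genes, as shown next, so their differences and those of the other heat and stress genes named are also given without it.

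Apart from AT4G10250 (mean 3.64), the genes were not near silent in uninduced cells, although low transcription is usual for most of the family without stress. Their uninduced means ran from 8.04 (AT5G37670) to 12.05 (AT1G07400), above the medians of the uninduced arrays (5.48 to 6.08). What set these levels was not tested. All 10 genes had a lower mean in induced than in uninduced cells, and in 9 of them every induced array lay below every uninduced array. The same complete separation downwards held for 7.99% of all named genes and 7.81% of all probes. This separation belongs to the contrast that chose the genes, and nothing is read from it. The log2 differences ran from -1.98 (AT1G52560) to -0.19 (AT4G10250), with a median of -0.85 where that of all named genes was -0.004. The run of 2 gave a median of -1.85 for the 10 genes and 0.01 for all named genes. In the run of 4 the medians were -0.41 and -0.02. Leaving out induced replicate 1 leaves the groups with unequal numbers of arrays from the run of 2. The medians were then -0.47 for the 10 genes and -0.17 for all named genes. Folds and differences given below without that array are not corrected for this shift.

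**Figure D1:**
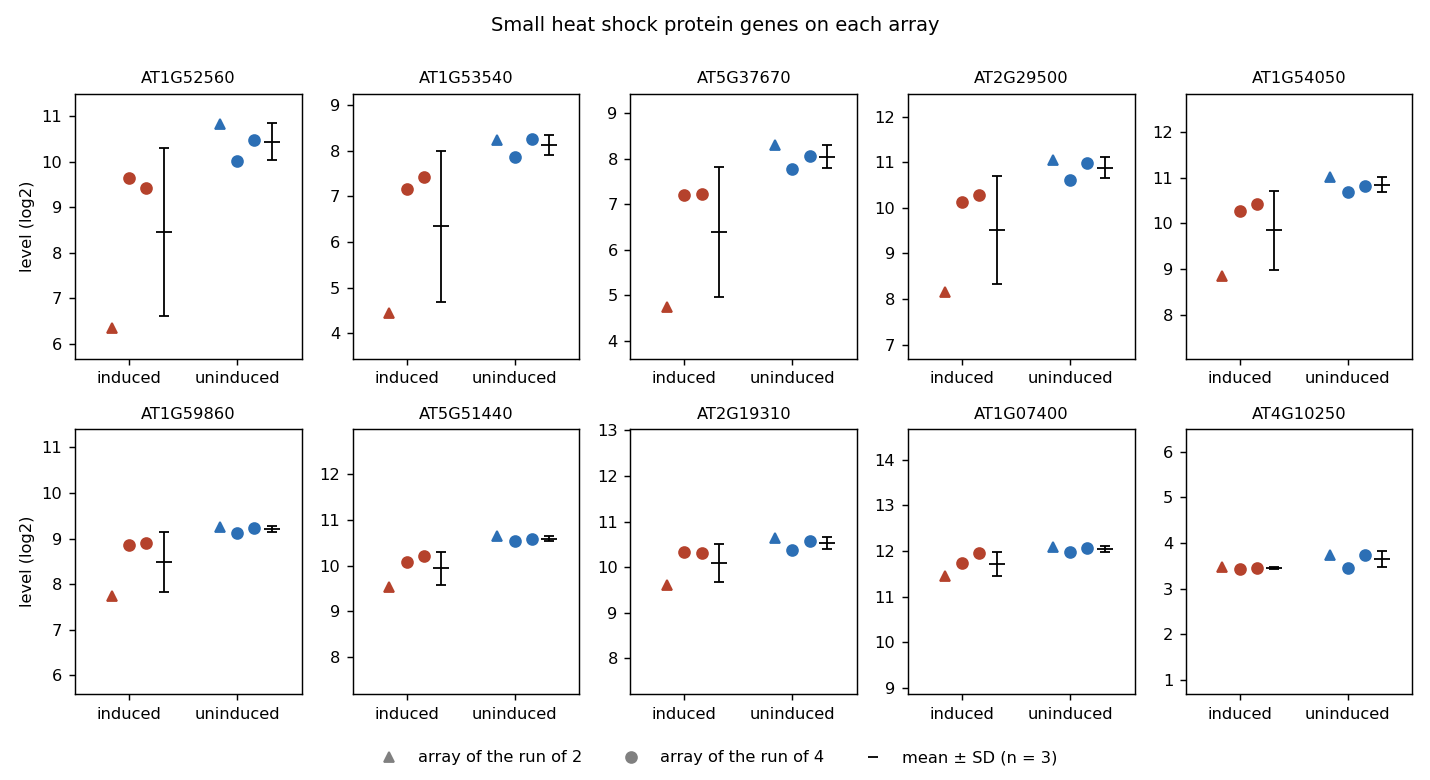
Level of the 10 small heat shock protein genes on each array (y axis, log2 as deposited, the same span in every panel), for induced cells on the left and uninduced cells on the right of each panel. Triangles are arrays of the run of 2, circles arrays of the run of 4, and bars the mean ± SD of 3 arrays; the induced triangle is the lowest point in every panel but that of AT4G10250.

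The cytosolic class I proteins are the main small heat shock proteins of the heated plant cell, and 4 of the 10 genes code for them. AT1G53540 had levels of 4.44, 7.16 and 7.43 on induced arrays (replicates 1 to 3), against 8.25, 7.87 and 8.25 on uninduced arrays. The groups did not overlap, and the value of 4.44 lay far below the other 5. Means were 6.34 ± 1.65 in induced cells and 8.12 ± 0.22 in uninduced cells (SD, n = 3 each), a 3.43-fold lower level that became 1.77-fold without induced replicate 1. AT2G29500 gave 8.15, 10.12 and 10.28 on induced arrays, against 11.04, 10.62 and 10.98 on uninduced arrays. It too was lowest on induced replicate 1, and the closest arrays of the 2 groups were 10.28 (induced) and 10.62 (uninduced). Its mean was 2.58-fold lower in induced cells, and 1.61-fold lower without induced replicate 1.

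The other class I genes differed less. AT1G59860 had levels of 7.73, 8.85 and 8.90 on induced arrays, against 9.25, 9.13 and 9.22 on uninduced arrays. The uninduced arrays were tightly grouped (SD 0.06), and induced replicates 2 and 3 lay just under them. The level was 1.63-fold lower in induced cells, or 1.26-fold without induced replicate 1. For AT1G07400 the induced values were 11.44, 11.75 and 11.97 and the uninduced values 12.09, 11.97 and 12.07. Its groups all but touched, at 11.968 on induced replicate 3 and 11.972 on uninduced replicate 2. The mean was 1.25-fold lower in induced cells (1.14-fold without induced replicate 1). Without that array its log2 difference was -0.19, near the median of -0.17 for all named genes. Class I genes are close relatives in sequence. Probe sequences were not used here, so whether transcripts of one reach the probe of another was not tested. No member shares its 6 values with any other probe.

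AT1G54050 codes for a class III protein, a further cytosolic and nuclear class. Levels were 8.84, 10.27 and 10.42 in induced cells, against 11.03, 10.69 and 10.83 in uninduced cells, with no overlap. Means were 9.85 ± 0.87 in induced cells and 10.85 ± 0.17 in uninduced cells (SD, n = 3 each), and without induced replicate 1 the level was 1.41-fold lower in induced cells. This gene came closest to the average pattern of the 10, from which its values, each set about its own mean, differed by 0.04 (root mean square, log2).

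Among the organelle forms, the peroxisomal protein is encoded by AT5G37670. Its induced values were 4.74, 7.20 and 7.22, against 8.29, 7.78 and 8.06 on uninduced arrays. Induced replicate 1 was again far below the rest, at a level under the 25th percentile of that array's probes (4.77), where the value of AT1G53540 on the same array also lay. Background was not estimated here, so if those values are background the differences they enter are lower bounds. The mean of AT5G37670 was 3.15-fold lower in induced cells (1.78-fold without induced replicate 1).

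AT5G51440, which codes for a mitochondrial form, had induced values of 9.53, 10.07 and 10.21 and uninduced values of 10.65, 10.55 and 10.57. The uninduced arrays spread least of all members here (SD 0.05), and all induced arrays were below them. The level was 1.57-fold lower in induced cells, or 1.36-fold without induced replicate 1.

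The form of the endoplasmic reticulum, ATHSP22.0 (AT4G10250), was the exception. Its levels were 3.48, 3.44 and 3.45 in induced cells, against 3.74, 3.45 and 3.75 in uninduced cells. Induced replicate 1 lay above uninduced replicate 2, so the groups overlapped, and induced replicate 1 did not stand apart from the other induced arrays. All 6 values were below the 25th percentile of their arrays (3.84 to 4.77). The mean was 1.14-fold lower in induced cells, at a level where background, which was not estimated, could hide a larger difference. Without induced replicate 1 it was 1.15-fold lower, a log2 difference of -0.20, near the median of -0.17 for all named genes.

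AT1G52560 and AT2G19310 complete the set. AT1G52560 gave the lowest difference of all 16505 named genes, with 6.34, 9.64 and 9.41 on induced arrays, against 10.82, 10.01 and 10.48 on uninduced arrays. Both groups spread more than for any other member (SD 1.84 induced, 0.41 uninduced), and they did not overlap. The mean was 3.93-fold lower in induced cells, and 1.88-fold lower without induced replicate 1. AT2G19310 had induced values of 9.61, 10.34 and 10.31 and uninduced values of 10.63, 10.38 and 10.57. Here the groups came close, at 10.34 on induced replicate 2 and 10.38 on uninduced replicate 2. The level was 1.36-fold lower in induced cells (1.15-fold without induced replicate 1). Without that array its log2 difference was -0.20, near the median of -0.17 for all named genes.

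The difference was larger in the run of 2 than in the run of 4 for every member. For AT4G10250 (-0.26 and -0.15), however, the gap was under the SD of its uninduced arrays (0.17). Over all named genes, 7241 of 16505 had the lower difference in the run of 2. In the run of 2, which has 1 array a group and no replicate check, AT1G52560 was 22.3-fold lower in the induced array, AT1G53540 14.0-fold, AT5G37670 11.7-fold and AT2G29500 7.43-fold. These took places 1, 2, 4 and 7 from the lowest among the 16505 named genes. In the run of 4 the same genes were 1.65-fold, 1.70-fold, 1.63-fold and 1.52-fold lower in the 2 induced arrays, and their places were 81, 55, 89 and 193. Both induced arrays of the run of 4 lay below both uninduced arrays in 9 of the 10 genes, as in 27.1% of all named genes.

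**Figure D2:**
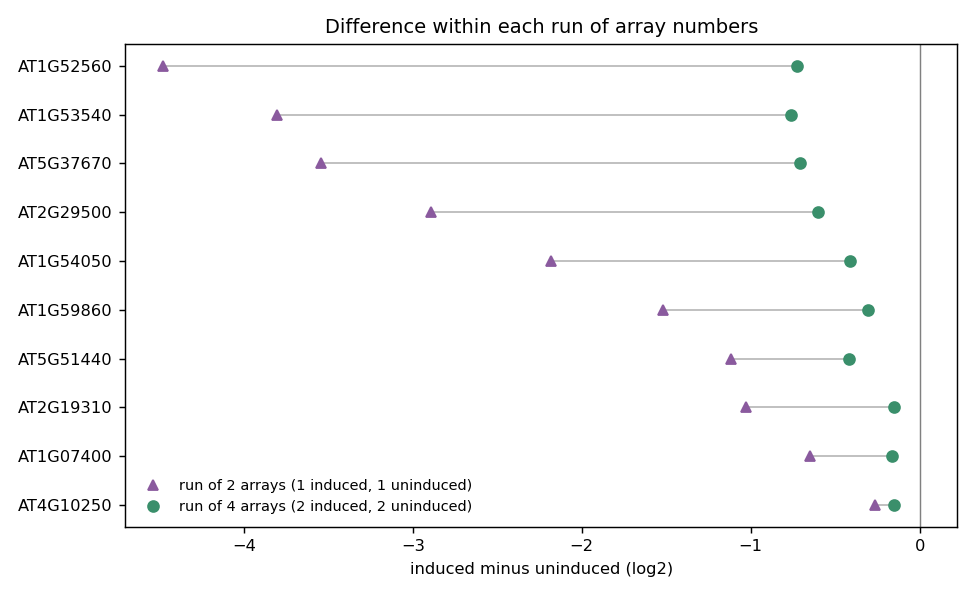
Difference of induced minus uninduced cells (x axis, log2) for each of the 10 genes (y axis) within the run of 2 arrays (triangles) and the run of 4 arrays (circles). All 20 points lie below 0, and the run of 2 lies further from 0 for all 10 genes, from -4.48 to -0.26 against -0.76 to -0.15.

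The order of the members was nevertheless much alike in the 2 runs, which share no array. Across the 10 genes the 2 sets of differences had a Pearson correlation of 0.95 and a Spearman correlation of 0.92, given as a description, since genes are not independent replicates and the list was drawn up with these differences known. Across all 16505 named genes, which were not chosen on these differences, the correlations were 0.60 and 0.37. The 2 sets of genes are therefore not directly comparable. In both runs AT1G52560, AT1G53540, AT5G37670 and AT2G29500 were the members furthest from 0, and AT4G10250 was among the closest.

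The gap between the runs lay mostly on the induced side. Induced replicate 1 minus the mean of the other induced arrays ran from -3.18 to 0.03 (log2) over the members, with a median of -1.32, while the median of all named genes was 0.42. Induced replicate 1 held the lowest of the 6 values for 9 of the 10 members and for 5.21% of all named genes. Uninduced replicate 1 was higher than the mean of the other uninduced arrays for all 10, by 0.07 to 0.57, and the median of 0.17 was under the 0.37 of all named genes. As a result 9 of the 10 genes had a larger SD over induced than over uninduced arrays, the exception being AT4G10250, and the median SD was 0.76 in induced cells and 0.17 in uninduced cells. For all named genes these were 0.29 and 0.26, and 55.5% of them had the larger SD over induced arrays. What set induced replicate 1 apart was not tested.

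The members also moved together inside the uninduced group. Uninduced replicate 2 was the lowest of the 3 uninduced arrays for all 10 genes, as for 45.0% of all named genes. Its place below uninduced replicate 1 is not free of the choice of genes, as the difference in the run of 2 rests on that array. The choice did not use the difference between uninduced replicates 2 and 3. Within the run of 4, uninduced replicate 3 exceeded uninduced replicate 2 by 0.03 (AT5G51440) to 0.47 (AT1G52560), with a median of 0.23, where the median of all named genes was -0.0018. With 1 array on each side this has no replicate check, and it was looked at after the values had been seen.

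The difference between the runs over both groups was also fitted over all probes, as it is balanced over induced and uninduced arrays. Balance does not free it from the choice of genes, which was made with the differences inside each run known. A low value on induced replicate 1 enters both. The fit also has no term for a group difference that varies between the runs. For the members its calls are therefore a description. On values centred on each array's median, the log2 difference of the run of 2 minus the run of 4 was negative for all 10 members, from -1.97 to -0.55, and 5 passed the test (limma with group as a term, Benjamini-Hochberg adjusted p over all probes 0.0235 to 0.0410). These were AT1G07400, AT4G10250, AT5G51440, AT2G19310 and AT1G59860. In the same fit 29.3% of all probes were lower and 9.38% higher in the run of 2, against which the 5 of 10 are to be read. The calls rested on the scaling, with 0 of the 10 genes past the threshold on values as deposited, where 37.4% of all probes passed, 9 members were negative and AT4G10250 was at 0.09. After quantile normalization 1 of 10 was lower (AT4G10250, adjusted p = 0.0325), as were 4.23% of all probes. They rested on the arrays too, as 0 to 2 passed when any 1 array was left out.

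Other genes of the heat response were read from lists of known chaperones and heat-response genes, written with earlier results of these data known. Of 81 listed genes 18 were measured, and 0 passed the test of induced against uninduced cells (limma, adjusted p over all 38408 probes, lowest 0.633; 0 also when the run was a block in the fit, lowest 0.162). Over all probes 0.534% were higher and 0% lower, and 0.992% and 0.0338% with the run as a block. At an unadjusted p under 0.05, 11 of the 18 were lower and 0 higher, where limma gave 1151 higher and 1053 lower of all 38408 probes. Induced replicate 1 held the lowest value in 9 of the 18, as in 5.21% of all named genes. The genes share the same arrays, so the 11 are not separate evidence. The differences were negative for 16 of the 18, as for 50.8% of all named genes, with a median of -0.49 (-0.62 in the run of 2, -0.35 in the run of 4). In 13 of the 18 all induced arrays lay below all uninduced arrays, as in 7.99% of all named genes. None of the 21 listed heat shock transcription factors was measured by name.

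**Figure D3:**
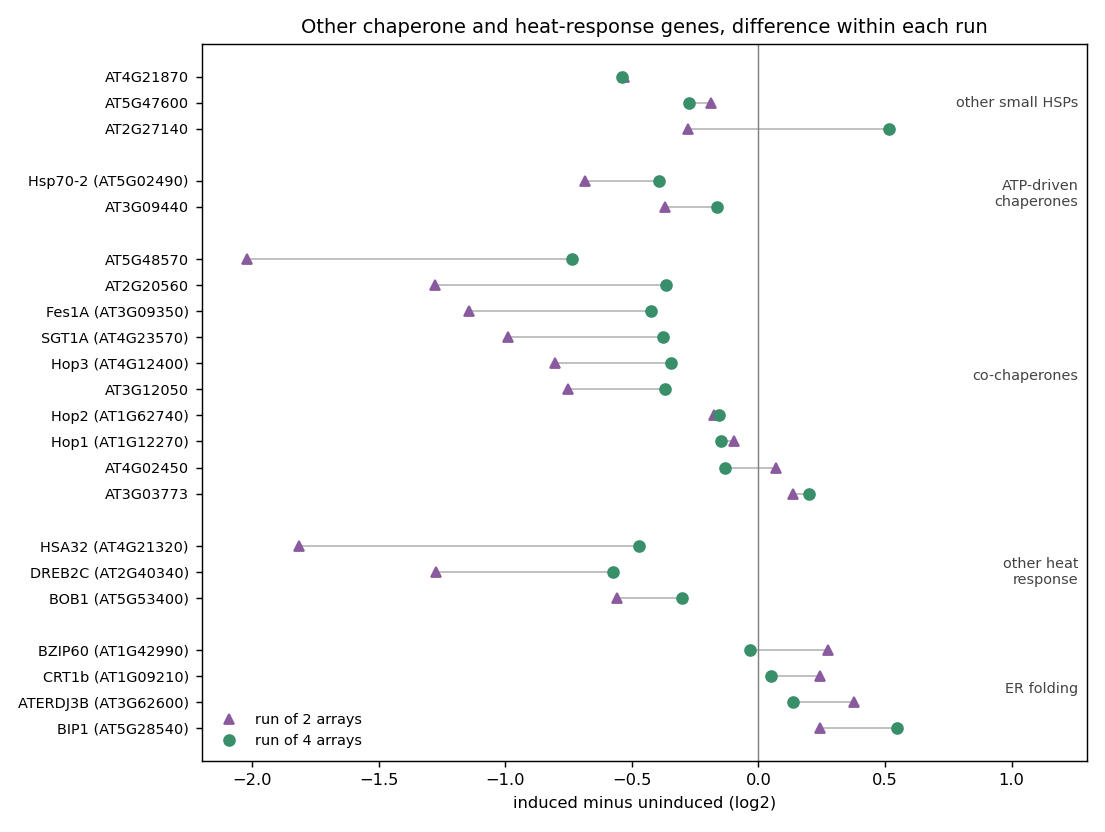
Difference of induced minus uninduced cells (x axis, log2) within the run of 2 arrays (triangles) and the run of 4 arrays (circles) for measured genes of other chaperone and heat-response lists (y axis, grouped). The co-chaperone AT5G48570 and HSA32 reach -2.02 and -1.82 in the run of 2, while the 4 genes of protein folding in the endoplasmic reticulum lie between -0.03 and 0.55.

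Of the co-chaperones, which help the ATP-driven chaperones, 10 of 16 listed were measured and 9 had negative differences. AT5G48570, an FK506-binding peptidyl-prolyl isomerase that interacts with HSP90, had levels of 9.24, 10.60 and 10.65 in induced cells, against 11.26, 11.28 and 11.44 in uninduced cells. As in the small heat shock protein genes, induced replicate 1 was lowest and the groups did not overlap. The difference was -1.17 ± 0.41 (SE), and those of the DnaJ protein AT2G20560, of Fes1A, which exchanges the nucleotide of HSP70, and of SGT1A, a co-chaperone of HSP90, were -0.67, -0.67 and -0.58. Without induced replicate 1 these were -0.70 for AT5G48570, -0.43 for AT2G20560, -0.39 for Fes1A and -0.47 for SGT1A. The positive one, AT3G03773, a p23-type partner of HSP90 named after its value was seen, was at 0.18 (0.07 without induced replicate 1).

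HSA32, which prolongs acquired heat tolerance, differed by -0.92 ± 0.35 (SE), with 8.19, 9.42 and 9.32 in induced cells, against 10.01, 9.78 and 9.90 in uninduced cells. DREB2C, a transcription factor of the heat and drought response, differed by -0.81, and BOB1, a non-canonical small heat shock protein, by -0.39. Without induced replicate 1 the differences were -0.53 for HSA32, -0.59 for DREB2C and -0.42 for BOB1. In these 3 genes, of 9 listed, no induced array reached an uninduced one. The ATP-driven chaperones had 2 of 24 measured, Hsp70-2 at -0.49 and AT3G09440, another cytosolic HSP70, at -0.23 (-0.49 and -0.15 without induced replicate 1). Without that array the median of all named genes was -0.17, so AT3G09440 was then near a typical gene.

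The 3 measured genes among 11 other small heat shock and alpha-crystallin proteins did not share the low value on induced replicate 1. AT4G21870 had levels of 5.52, 5.35 and 5.29 in induced cells, against 6.05, 5.57 and 6.14 in uninduced cells. Its groups did not overlap, but induced replicate 1 was the highest of the induced arrays, and the difference was the same size in both runs (-0.53 and -0.54). AT5G47600 differed by -0.25 and AT2G27140 by 0.25, and in neither were the groups apart. The direction of AT2G27140 turned between the runs, at -0.28 in the run of 2 and 0.51 in the run of 4. All its values were below the 25th percentile of their arrays (3.84 to 4.77), and background was not estimated. Without induced replicate 1 the differences were -0.60 for AT4G21870, -0.30 for AT5G47600 and 0.07 for AT2G27140.

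Lists of other stresses had few measured genes and no call. In protein folding in the endoplasmic reticulum, 4 of 10 listed genes were measured with differences of 0.45 for the chaperone BIP1, 0.22 for ATERDJ3B, 0.11 for the calreticulin CRT1b and 0.07 for BZIP60. Without induced replicate 1 they were 0.25, 0.19, 0.03 and -0.09, and BZIP60 was also negative in the run of 4 (-0.03). Levels of BIP1 were 4.04 to 4.96 in induced cells and 3.68 to 4.72 in uninduced cells. These lay near the 25th percentiles of the arrays (3.84 to 4.77). For oxidative stress 1 of 8 was measured, GSTU25, at 0.23 (0.27 without induced replicate 1). The low-oxygen list had 1 of 10 measured, AT3G10040, a transcription factor gene induced by low oxygen, with levels of 4.79, 6.10 and 5.97 in induced cells, against 6.43, 5.91 and 6.54 in uninduced cells. It too was lowest on induced replicate 1, although its groups overlapped. It differed by -0.67, which rested largely on that array, as the difference was -0.25 without it and -0.19 in the run of 4. The median of the members shrank as well, from -0.85 to -0.47 and -0.41. In likeness to the members' mean pattern, described next, AT3G10040 took place 12 among the 16495 other named genes.

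The genes most like the members in pattern were sought among the other 16495 named genes, by the root mean square difference over the 6 arrays from the mean pattern of the 10, each gene set about its own mean. The nearest 5 were AT3G10020 (0.115 on the log2 scale), AT3G17400 (0.119), AT5G54165 (0.130), HSA32 (0.130) and AT4G32480 (0.131). AT3G10020 had levels of 8.14, 9.91 and 9.87 in induced cells, against 10.34, 10.17 and 10.23 in uninduced cells. All 5 were lowest on induced replicate 1, with no overlap between the groups, as their likeness to the members requires. For comparison, the members themselves lay 0.04 to 0.76 from their own mean.

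**Figure D4:**
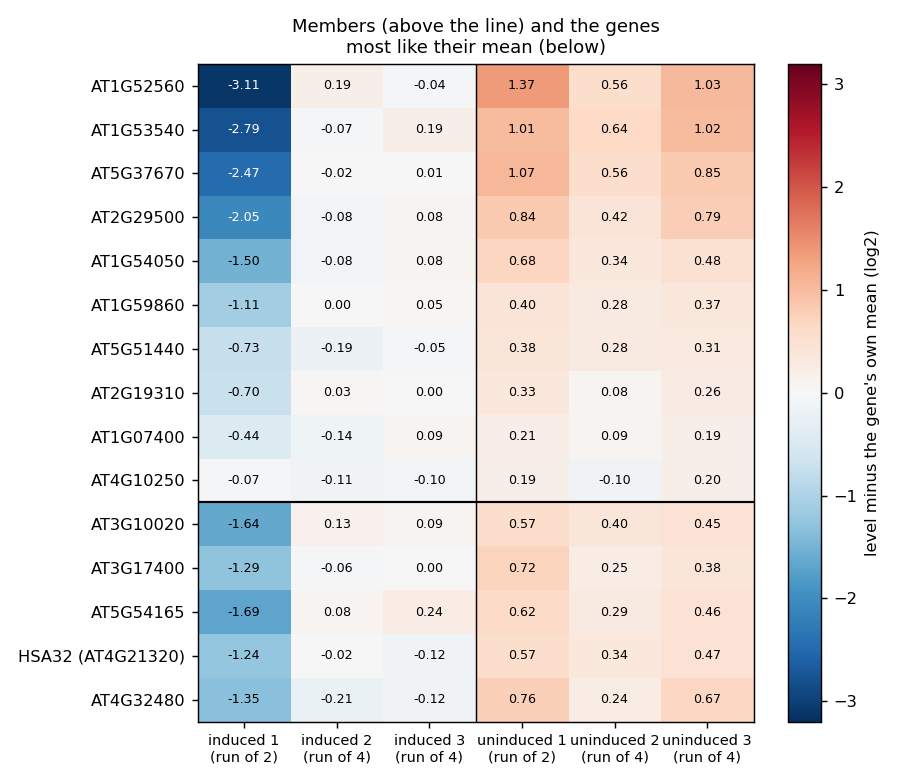
Level minus the gene's own mean over the 6 arrays (colour and printed value, log2) for the 10 members above the line and the 5 genes most like their mean below it (y axis), on each array (x axis, induced arrays on the left). Induced replicate 1 is the lowest array in every row but AT4G10250, and the 5 lower rows resemble the members of middling size.

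The members lie on chromosomes 1, 2, 4 and 5, and no 2 of them are direct neighbours among protein-coding genes. Of their 20 nearest protein-coding neighbours, 10 were measured. These had differences from -0.30 to 0.17 with a median of -0.03, 6 of them negative, and 0 passed the test, with or without the run as a block (limma; 0 also at an unadjusted p under 0.05 without the block). In 1, AT1G53530, all induced arrays lay below all uninduced arrays.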

How the data were processed

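Biotin-labelled total RNA of 6 samples was hybridised to Affymetrix arrays, per the labels' protocols. Per the submitters' processing notes, the authors used Affymetrix Expression Console 1.3, and deposited 1 value per probe and array, taken here to be log2 because all lie between 0.30 and 14.05. The log base, the summarisation, the background correction and any joint normalization were not given in the sources used here. Of 38408 probes, 16722 were paired with 1 gene, 759 with several and 20927 with none in the array's annotation. Names were updated by gene identifier from the RefSeq gene table of TAIR10.1, without coordinates.

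Groups came from the stimulation labels, and replicate numbers only name arrays. A gene was represented by its probe of highest mean. The fit over all probes used limma 3.58.1 in R 4.3.3 (lmFit, eBayes, no trend) with Benjamini-Hochberg adjustment and a threshold of 0.05, and was tested on simulated data. The run comparison used array-median-centred values with group as a term. Members and lists were chosen with earlier results of these data known. Named genes are all members, up to 4 per other list by size of difference, and the 5 most like the members' mean. The number of arrays limits the precision. Alternatives were the run as a block, trend with robust estimation, the run of 4 alone, median centring, quantile normalization, dropping the dimmest 25% of probes, and leaving out each array. The member differences within each run and the list counts without induced replicate 1 were added after the data were seen. Tables and figures were made with Python 3.11.15.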

Additional observations from a re-analysis of the deposited data

How the results depend on the processing

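The 10 member differences stayed negative under every alternative run (median centring, quantile normalization, group medians, the mean of all probes, each run alone and each array left out). Their median of -0.85 ranged from -1.10 to -0.47 with 1 array left out, the last without induced replicate 1, where the median of all named genes was -0.17. The members were chosen with this contrast known, so the lasting sign is a description and no support. Sizes did change, as AT1G52560 went from -1.98 to -4.48 in the run of 2 alone and -0.72 in the run of 4 alone. As each gene has 1 probe, the mean of all probes changes nothing by construction. Probes higher in induced cells numbered 205, against 381 with the run as a block, 351 with trend and robust estimation, 318 after quantile normalization and 56 to 154 with 1 array left out. Probes lower numbered 0, against 13, 14 and 5 under the same 3 settings, 3 in the run of 4 alone, 1 without dim probes and 0 with any array left out. Heat-pathway genes past the threshold were 0 under every alternative. Counts of heat-pathway genes with negative differences were the same without induced replicate 1. In that setting 75.7% of all named genes were negative, against 50.8% with all arrays. The unchanged counts, also those of the members, are to be read beside that share. Between the runs, 3603 probes were higher and 11268 lower on centred values, against 14126 and 230 as deposited, 1667 and 1625 after quantile normalization, and 0 to 2983 and 0 to 8716 with 1 array left out. Members past that threshold numbered 5, against 0 as deposited, 1 after quantile normalization and 0 to 2 with 1 array left out. For both comparisons the cause was not tested. The labels give no replicate numbers that pair the groups, so the run was the block.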
